A study of Homo sapiens with 3 samples.

Results

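RNA levels of 42 genes that repair DNA breaks and cross-links were compared in 3 human prostate cancer cell lines. The genes were taken by name, and all 42 were found among the 58735 genes of the count tables. Gene expression had been measured by RNA sequencing of total RNA in PC3, DU145 and LNCAP cells, with 1 library per line. The series design places PC3 and DU145 in the castration-resistant class, which grows when androgen is withdrawn, and LNCAP in the androgen-dependent class. The lines are established cultures without an added gene, allele or drug in the labels, and all were grown with 10% serum at 37 °C. The labels name several media without tying one to a line. With 1 culture per line there is no replicate, so a difference below is one between libraries and has no replicate check.

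Homologous recombination repairs a double-strand break by copying the intact sister chromatid. The ends are first resected, and BRCA1, BARD1, PALB2 and BRCA2 then act with further mediators so that the bared strand can pair with its copy. The Fanconi anaemia pathway unhooks cross-links between the strands and passes the break to homologous recombination, whereas end joining rejoins ends without a template. In prostate cancer, inherited or acquired loss of BRCA2, ATM, CDK12 and related genes is known, and tumours that lack homologous recombination are treated with PARP inhibitors.

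The libraries held between 15319045 and 15878546 counts, and a count of 0 allowed up to 0.196 CPM (3 counts, counting error only). The luminal prostate marker KLK3, which encodes prostate-specific antigen, had 0, 0 and 35507 counts in PC3, DU145 and LNCAP. HOXB13, a prostate lineage factor, stood at 387, 0 and 329 CPM in PC3, DU145 and LNCAP, so DU145 held neither. Of the 4 epithelial markers, the keratin genes KRT8 (258, 1041 and 445 CPM) and KRT18 (189.5, 497 and 232 CPM) were high in PC3, DU145 and LNCAP. The adhesion genes EPCAM (7.52, 69.7 and 61.7 CPM) and CDH1 (2.22, 145 and 786 CPM) were far lower in PC3 than in DU145 and LNCAP. The 3 fibroblast markers summed to 0.511 CPM at most and the 3 leukocyte markers to 0.458 CPM at most. The endothelial list summed to 20.1 CPM in PC3, nearly all of it PECAM1, to 0.957 CPM in DU145 and to 9.34 CPM in LNCAP.

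Every one of the 42 genes passed the filter of 1 CPM, and the lowest value in any library was 2.16 CPM, for RAD50 in PC3. Normalised CPM, that is counts divided by the TMM-scaled library total, is used to compare a gene between lines, and FPKM, which also divides by gene length, to compare genes with each other. The median of the 42 genes was 6.11 FPKM in PC3, 7.28 in DU145 and 5.67 in LNCAP, against medians of 3.59, 3.41 and 3.36 FPKM over all 18025 genes tested. XRCC6, which encodes the Ku70 subunit that caps broken ends, had the highest level at 114, 189 and 129 FPKM in PC3, DU145 and LNCAP. XRCC5, for its partner Ku80, followed in DU145 and LNCAP at 71.4 and 73.7 FPKM, and PARP1, for the enzyme that marks nicks with poly(ADP-ribose), in PC3 at 63.1 FPKM. Most of the other genes lay far below these. The 5 filament-support genes, RAD51B, RAD51C, RAD51D, XRCC2 and XRCC3, had medians of 3.43, 4.66 and 4.76 FPKM in PC3, DU145 and LNCAP.

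Of the 42 genes 17 were highest in PC3, 17 in DU145 and 8 in LNCAP. The lowest level was in PC3 for 14 genes, in DU145 for 8 and in LNCAP for 20. The highest line was between 1.21 and 8.52 times the lowest, with a median of 1.98.

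**Figure D1:**
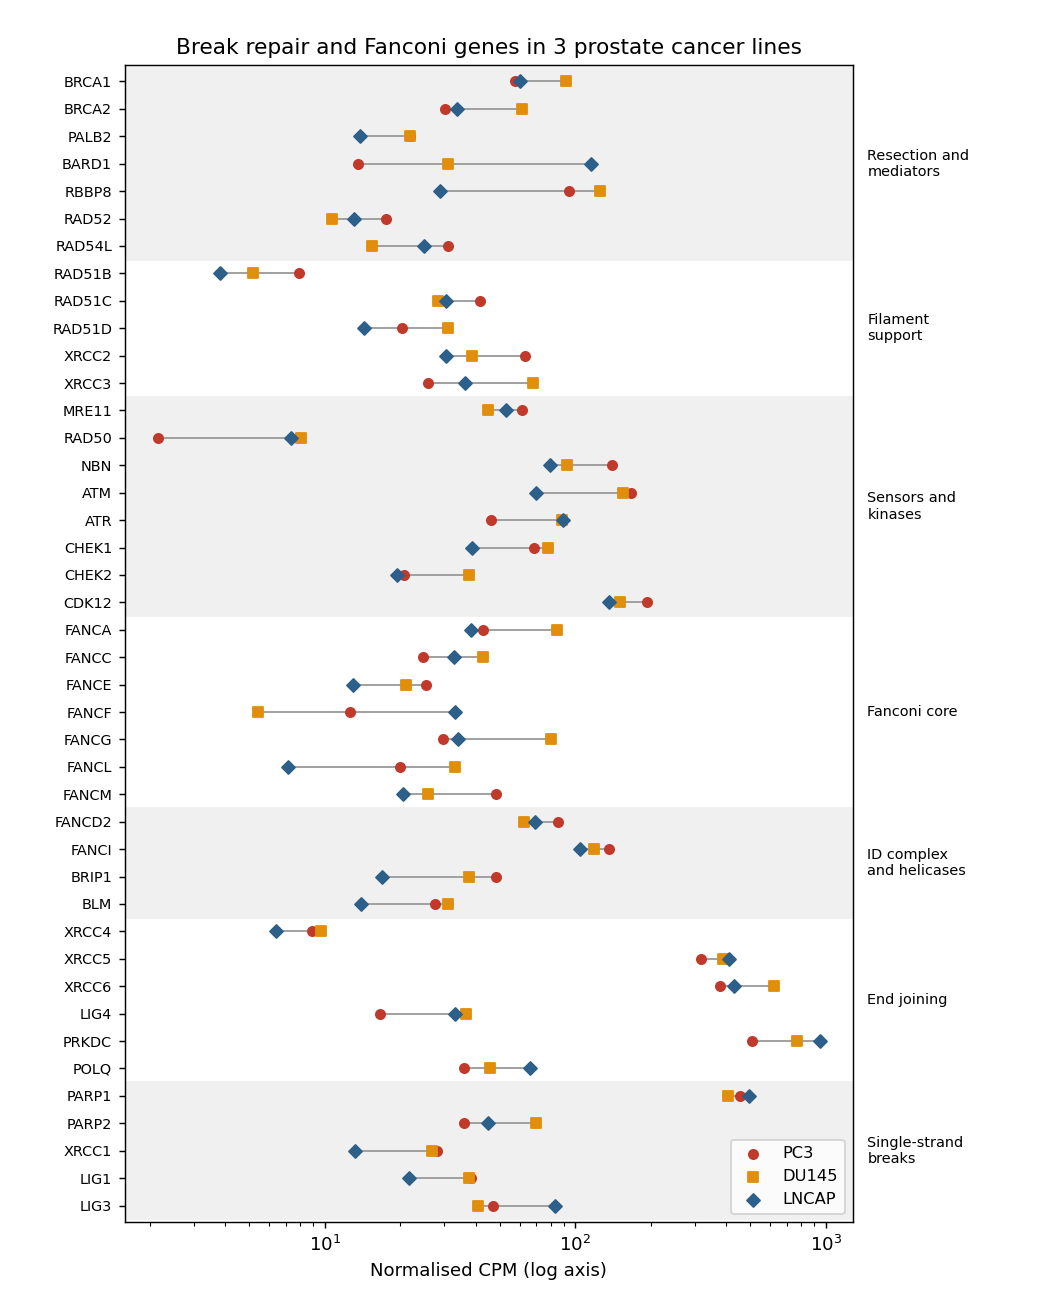
Normalised CPM (log axis) of the 42 genes, grouped by role, with 1 point per library for PC3, DU145 and LNCAP and a grey line joining the lowest and highest. BARD1 spans 13.5 to 115 CPM, while FANCI, PARP1 and XRCC5 lie close together in the 3 lines.

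A gene was called apart when its libraries differed at least 2-fold and the 95% counting interval of the ratio excluded 1. In PC3 against LNCAP, 8 of the 42 genes were called higher and 3 lower, which is 26.2% of them, and with upper quartile scaling 6 were higher and 5 lower. Over all 18025 genes tested 46.2% were called, 22.6% higher and 23.6% lower. In DU145 against LNCAP, 10 genes were higher and 3 lower (31%), against 46% of all genes, 22.9% higher and 23.1% lower. The share of repair genes called higher was 19% in PC3 and 23.8% in DU145, near that of all genes, and the share called lower was 7.14% in both. In PC3 against DU145, 2 genes were higher and 6 lower (19%), or 1 and 6 with upper quartile scaling, against 37.8% of all genes, 18.5% higher and 19.3% lower. The 2 comparisons with LNCAP share its library, so they are not independent of each other.

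The median log2 ratio of the 42 genes was 0.31 in PC3 over LNCAP, 0.41 in DU145 over LNCAP and -0.15 in PC3 over DU145. The same medians over all genes tested were -0.01, 0.00 and 0.02. All genes tested include some, such as KLK3, with counts in 1 line only. The 42 genes stood at 2.16 CPM or more in every library, and the 2 sets were not matched for level. At least 4-fold differences among the 42 genes were few. BARD1 was the only such gene in PC3 against LNCAP, where 26.3% of all genes were that far apart and 13.3% were lower. RBBP8, FANCF and FANCL were the 3 in DU145 against LNCAP, against 25.8% of all genes, 13.7% higher and 12.1% lower, and none was found in PC3 against DU145, against 19.1% (8.54% higher, 10.6% lower).

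**Figure D2:**
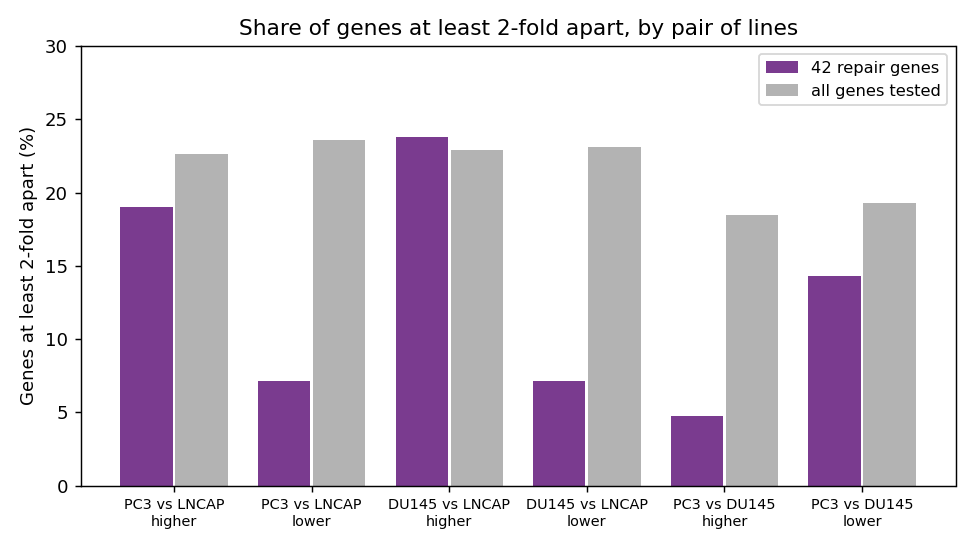
Percentage of genes at least 2-fold higher or lower in each pair of lines, for the 42 repair genes (purple) and all 18025 genes tested (grey). The repair bar passes the grey one only for genes higher in DU145 than in LNCAP, at 23.8% against 22.9%.

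Promoters of several genes are shown because they share a short motif that the choice of genes did not use. RefSeq promoter sequence (GRCh38.p14, 250 bases before and 50 after the start) was found for 38 of the 42 genes, and both strands were searched. The letters GCGGGAA, one form of the site of E2F factors that switch on genes for DNA replication, stood in 19 of the 38 (50%). They stood in 6 of 13 S-phase genes (46.2%) and 10 of 43 other pathway genes (23.3%), the lists described further on, in 7.82% of all 27305 genes with a promoter entry and in 12.3% of the protein-coding genes at 1 CPM or more. TTTGAA, the core of the cell cycle homology region, was found in 5 of the 38 (13.2%), against 18.2% of all genes and 13.8% of those protein-coding genes. CCAAT, the box bound by NF-Y, was found in 17 (44.7%), against 39.7% of all genes and 42.8% of those protein-coding genes. No motif contains another. Below are the 150 bases before the start for BRCA1 and 4 genes that were higher in DU145 than in LNCAP, with GCGGGAA or its complement in capitals, and for FANCF, which was lower, with its pair of CCAAT boxes in capitals. These were picked after their values were seen. CCAAT is marked in FANCF alone. BLM, which was higher in DU145, also holds it on either strand in the printed stretch, 141, 46 and 21 bases before the start.
BRCA1, chr17:43125365-43125514, minus strand: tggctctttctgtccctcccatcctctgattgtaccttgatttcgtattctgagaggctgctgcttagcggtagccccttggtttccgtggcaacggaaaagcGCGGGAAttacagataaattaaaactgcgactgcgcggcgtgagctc
RAD51D, chr17:35119759-35119908, minus strand: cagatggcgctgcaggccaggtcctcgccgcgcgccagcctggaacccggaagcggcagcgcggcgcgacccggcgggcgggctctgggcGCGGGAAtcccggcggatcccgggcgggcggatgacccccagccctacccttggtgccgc
FANCG, chr9:35079943-35080092, minus strand: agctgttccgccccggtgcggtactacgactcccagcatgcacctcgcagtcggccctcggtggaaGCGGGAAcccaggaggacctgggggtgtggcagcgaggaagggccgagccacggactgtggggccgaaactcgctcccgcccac
FANCL, chr2:58241326-58241475, minus strand: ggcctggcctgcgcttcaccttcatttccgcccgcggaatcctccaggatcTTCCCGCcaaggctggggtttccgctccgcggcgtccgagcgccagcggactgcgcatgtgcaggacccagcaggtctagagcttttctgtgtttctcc
BLM, chr15:90717196-90717345, plus strand: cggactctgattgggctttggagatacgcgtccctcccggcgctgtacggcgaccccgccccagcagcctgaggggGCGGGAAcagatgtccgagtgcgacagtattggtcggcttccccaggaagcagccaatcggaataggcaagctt
FANCF, chr11:22625824-22625973, minus strand: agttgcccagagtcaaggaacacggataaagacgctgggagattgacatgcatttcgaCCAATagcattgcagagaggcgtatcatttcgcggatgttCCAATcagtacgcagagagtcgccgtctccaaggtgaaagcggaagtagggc
The motif starts 47 bases before the start in BRCA1, 60 in RAD51D, 84 in FANCG, 99 in FANCL and 74 in BLM, and the CCAAT boxes of FANCF start 92 and 52 bases before it. In BARD1 and BRIP1 the motif lies just after the start, at the fifth and the third base.

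Genes with the motif did not all move one way. In DU145 against LNCAP, 6 of the 19 genes with GCGGGAA were higher and 1 lower. Of the 19 without it 4 were higher and 2 lower, against 22.9% and 23.1% of all genes tested. In PC3 against LNCAP these counts were 4 and 1 with the motif and 4 and 2 without it, against 22.6% and 23.6%. In PC3 against DU145 they were 1 and 3 both with and without it, against 18.5% and 19.3%. A match is a run of letters and was not shown to bind a factor in these cells.

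Among the genes of resection and the mediators of recombination, BARD1 and RBBP8 stood furthest apart, in opposite directions. Of these 7 genes RBBP8 was the 1 called higher than in LNCAP and BARD1 the 1 called lower, in PC3 and in DU145. BARD1 (chromosome 2, 214725646 to 214809711), which encodes the partner that BRCA1 needs for its ubiquitin ligase activity, stood at 13.5 CPM in PC3, 31.1 CPM in DU145 and 115 CPM in LNCAP. It was 8.52-fold lower in PC3 than in LNCAP (7.38 to 9.89) and 3.71-fold lower in DU145 (3.36 to 4.11). PC3 was in turn 2.30-fold below DU145 (1.95 to 2.71), so the 3 lines were all apart. RBBP8 (chromosome 18, 22798261 to 23026488), whose product CtIP starts the resection of broken ends, stood at 94.2 CPM in PC3, 125.5 CPM in DU145 and 28.8 CPM in LNCAP. It was 3.27-fold higher in PC3 than in LNCAP (2.94 to 3.65) and 4.36-fold higher in DU145 (3.93 to 4.84). Between PC3 and DU145 the difference in RBBP8 was 1.33-fold (1.24 to 1.43).

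BRCA1 and BRCA2 were closer together, and DU145 held the most of both. BRCA1 stood at 57.4, 91.8 and 60.3 CPM in PC3, DU145 and LNCAP, and no pair of lines reached 2-fold. BRCA2, a central mediator of homologous recombination, stood at 30.2, 61.5 and 33.65 CPM in PC3, DU145 and LNCAP. It was 2.03-fold lower in PC3 than in DU145 (1.82 to 2.28), while PC3 and LNCAP differed within counting error (1.11-fold, 0.981 to 1.26). PALB2, which bridges the 2 BRCA proteins, stood at 22.0, 21.8 and 13.8 CPM in PC3, DU145 and LNCAP and was called in no pair. RAD54L, a motor protein that remodels the joined DNA, stood at 31.1 CPM in PC3, 15.4 CPM in DU145 and 24.9 CPM in LNCAP, and was 2.02-fold higher in PC3 than in DU145 (1.73 to 2.37). Of its exon length 25.1% overlaps LRRC41 on the other strand. RAD52, which anneals single strands, ranged from 10.7 to 17.6 CPM and was called in no pair.

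The 5 filament-support genes, whose products work in complexes with each other during homologous recombination, showed a different leading line from gene to gene. Of the 5, 2 were called higher in PC3 than in LNCAP and 1 in DU145, and none lower. XRCC2 stood at 63.3 CPM in PC3, 38.9 CPM in DU145 and 30.6 CPM in LNCAP and was 2.07-fold higher in PC3 than in LNCAP (1.85 to 2.32), a call lost with upper quartile scaling (log2 ratio 0.96). RAD51B, with 60 counts the lowest count of the 42 genes in LNCAP, stood at 7.92, 5.17 and 3.84 CPM in PC3, DU145 and LNCAP. Its 2.06-fold difference between PC3 and LNCAP has a wide interval (1.501 to 2.86). RAD51D was highest in DU145, at 20.3, 31.1 and 14.3 CPM in PC3, DU145 and LNCAP, 2.17-fold above LNCAP there (1.85 to 2.56). XRCC3 stood at 25.9, 67.8 and 36.4 CPM in PC3, DU145 and LNCAP and was 2.62-fold lower in PC3 than in DU145 (2.33 to 2.94). Its value is uncertain, since 76.7% of its exon length overlaps KLC1 on the other strand and the counting strand is not given in the sources used here. RAD51C ranged from 28.3 to 41.7 CPM and was called in no pair.

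Among the break sensors and their kinases, ATM was the gene called in both comparisons with LNCAP. Of these 8 genes 1 was higher and 1 lower in PC3 than in LNCAP, and 2 were higher and none lower in DU145. ATM, the kinase that double-strand breaks activate, stood at 166.5 CPM in PC3, 155 CPM in DU145 and 69.9 CPM in LNCAP. It was 2.38-fold higher in PC3 than in LNCAP (2.22 to 2.56) and 2.22-fold higher in DU145 (2.06 to 2.38). ATR, the kinase of stalled replication forks, was lowest in PC3, at 46.2, 88.9 and 89.6 CPM in PC3, DU145 and LNCAP. Its differences of 1.94-fold from LNCAP (1.77 to 2.13) and 1.92-fold from DU145 (1.76 to 2.11) stayed under the 2-fold rule, although with upper quartile scaling the log2 ratio of PC3 over LNCAP was -1.04, past it. CHEK1, which acts below ATR, stood at 68.8, 77.9 and 38.7 CPM in PC3, DU145 and LNCAP, and its 2.01-fold difference between DU145 and LNCAP (1.82 to 2.22) lies at the threshold. CHEK2, which acts below ATM, stood at 20.8, 37.5 and 19.4 CPM in PC3, DU145 and LNCAP, and CDK12, a kinase needed to transcribe long repair genes, at 193, 152 and 136 CPM. Neither was called in a pair.

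The MRN complex of MRE11, RAD50 and NBN binds broken ends first. MRE11 ranged from 44.8 to 61.4 CPM, and NBN stood at 139.9, 93.0 and 79.0 CPM in PC3, DU145 and LNCAP, with no call for either. RAD50 had only 33, 126 and 115 counts in PC3, DU145 and LNCAP, which is 0.219, 0.822 and 0.739 FPKM, against 7.93, 5.82 and 6.74 FPKM for MRE11. It was called 3.41-fold lower in PC3 than in LNCAP (2.30 to 5.18) and 3.72-fold lower than in DU145 (2.52 to 5.64). However, 79.7% of its exon length is shared with AC116366.3, a longer gene model on the same strand with 0, 2 and 2 counts. The level of RAD50 and its ratios are therefore uncertain. The end-joining gene NHEJ1, which is not among the 42 genes, had 7, 0 and 2 counts with 65.4% of its exons shared in the same way. How reads in shared exons were counted was not tested, and a low count here does not show a low RNA level.

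**Figure D3:**
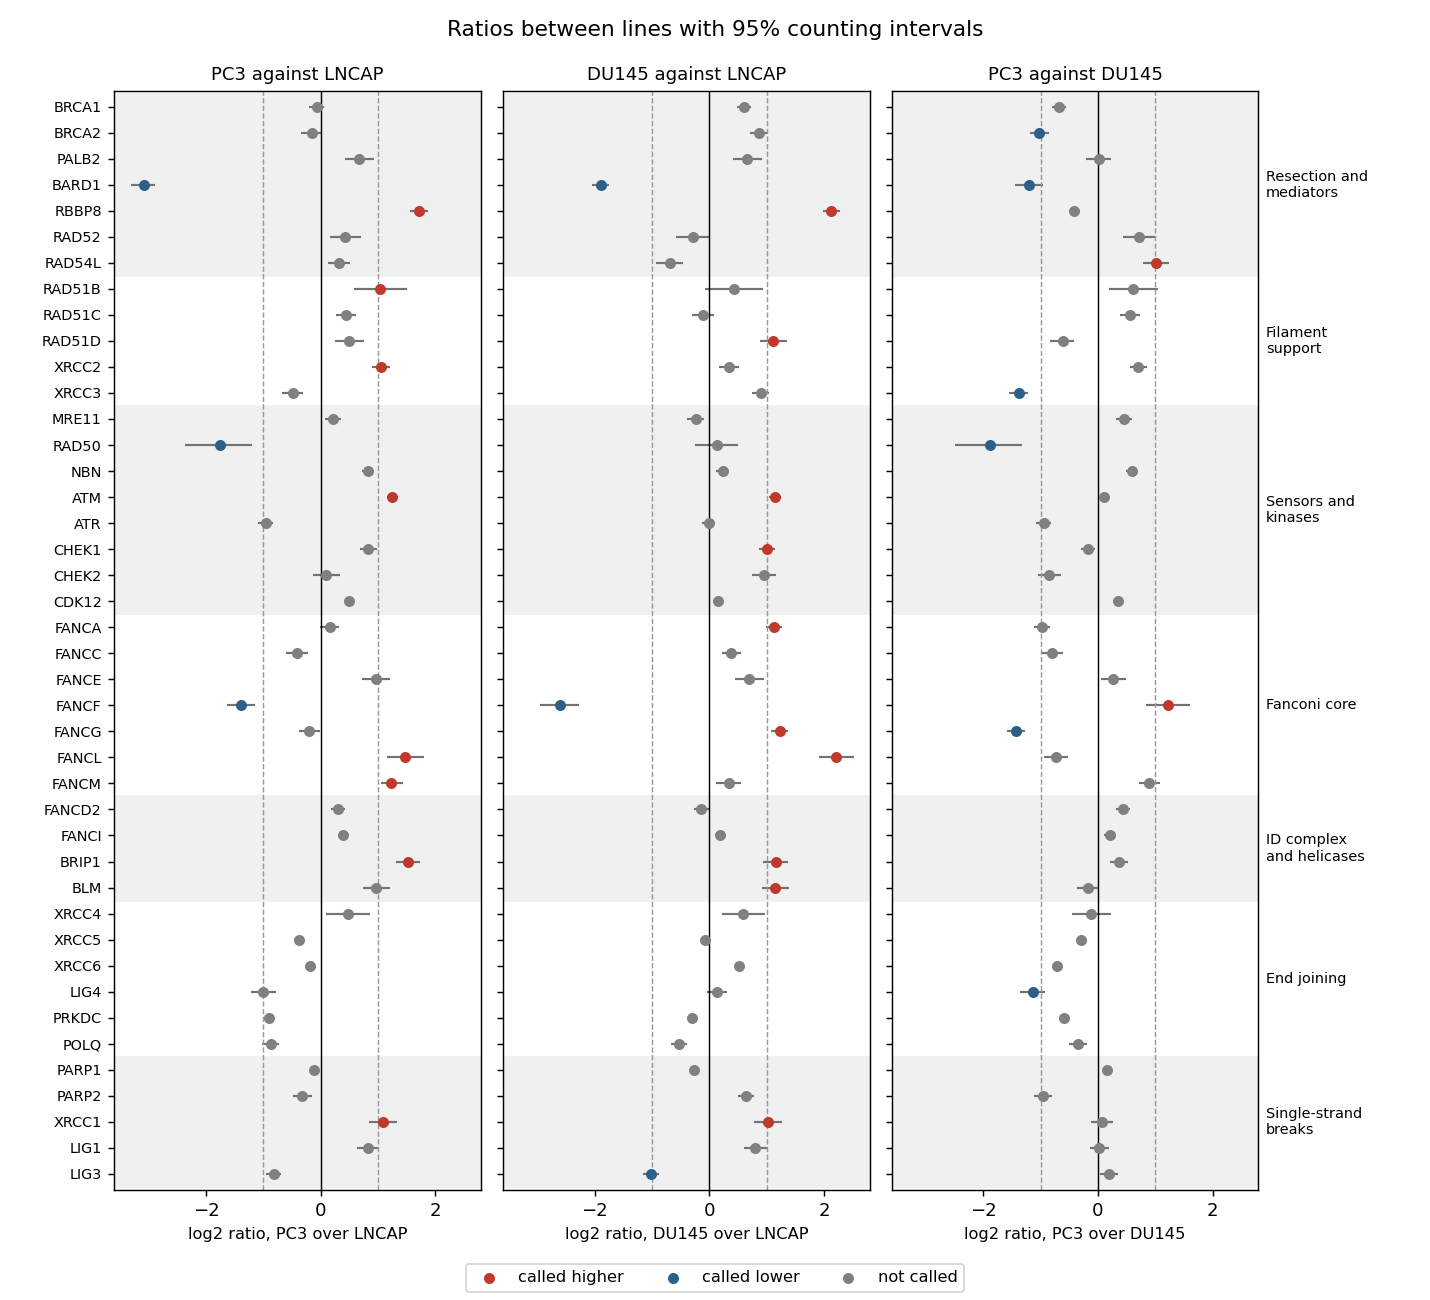
log2 ratios of the 42 genes for PC3 over LNCAP, DU145 over LNCAP and PC3 over DU145, with 95% counting intervals as grey bars, red and blue points for genes called higher and lower and dashed lines at 2-fold. BARD1 lies furthest left in the first panel at -3.09, and FANCF furthest left in the second at -2.61.

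The Fanconi core complex, which attaches ubiquitin to FANCD2 and FANCI at a cross-link, held the widest differences after BARD1. The 42 genes include 7 of this complex. Of these 2 were called higher and 1 lower in PC3 than in LNCAP, and 3 higher and 1 lower in DU145. FANCF (chromosome 11, 22622890 to 22625841), an adaptor that holds the core complex together, stood at 12.6 CPM in PC3, 5.42 CPM in DU145 and 33.2 CPM in LNCAP. It was 2.63-fold lower in PC3 than in LNCAP (2.22 to 3.12) and 6.12-fold lower in DU145 (4.86 to 7.79). PC3 was 2.33-fold above DU145 (1.79 to 3.04), so the order of the lines differed from that of BARD1. FANCL (chromosome 2, 58159243 to 58241372), the ubiquitin ligase subunit of the same complex, went the other way. It stood at 19.95 CPM in PC3, 33.1 CPM in DU145 and 7.16 CPM in LNCAP, which is 2.79-fold higher in PC3 than in LNCAP (2.24 to 3.49) and 4.62-fold higher in DU145 (3.76 to 5.72). Of its exon length 19.7% overlaps genes on the other strand, chiefly VRK2. VRK2 had 346, 539 and 210 counts in PC3, DU145 and LNCAP, the line order of FANCL. The counting strand is not given, and whether VRK2 reads entered the FANCL counts was not tested.

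FANCA and FANCG, 2 subunits that bind each other, were both highest in DU145. FANCA stood at 42.9, 84.2 and 38.5 CPM in PC3, DU145 and LNCAP and was 2.19-fold higher in DU145 than in LNCAP (1.99 to 2.41). It overlaps ZNF276 on the other strand over 23.6% of its exons. ZNF276 had 564, 899 and 571 counts in PC3, DU145 and LNCAP, also highest in DU145. Whether ZNF276 reads entered the FANCA counts was not tested. FANCG stood at 29.6, 80.0 and 34.1 CPM in PC3, DU145 and LNCAP, 2.35-fold higher in DU145 than in LNCAP (2.12 to 2.60) and 2.70-fold lower in PC3 than in DU145 (2.42 to 3.01). FANCM, the translocase that anchors the complex to DNA, was instead highest in PC3, at 48.2, 25.8 and 20.5 CPM in PC3, DU145 and LNCAP, 2.36-fold above LNCAP (2.06 to 2.69). FANCC and FANCE, the remaining core genes among the 42, ranged from 24.6 to 42.9 CPM and from 13.0 to 25.4 CPM and were called in no pair.

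The targets of the core complex were nearly level. FANCD2 stood at 85.1, 62.6 and 68.8 CPM and FANCI at 136.8, 119 and 104 CPM in PC3, DU145 and LNCAP. The widest gap for either gene was 1.36-fold, for FANCD2 in PC3 against DU145 (1.25 to 1.48). Both helicases were lowest in LNCAP. BRIP1, which binds BRCA1 and unwinds DNA in cross-link repair, stood at 48.5, 37.7 and 16.9 CPM in PC3, DU145 and LNCAP, 2.87-fold higher in PC3 than in LNCAP (2.49 to 3.32) and 2.23-fold higher in DU145 (1.93 to 2.59). BLM, which dissolves crossed strands, stood at 27.5, 31.1 and 14.01 CPM in PC3, DU145 and LNCAP. It was called in DU145 at 2.22-fold (1.89 to 2.61) and lay just under the threshold in PC3 at 1.96-fold (1.66 to 2.32).

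None of the 6 end-joining genes was called against LNCAP in either line. PRKDC, the catalytic subunit of the DNA-dependent kinase, stood at 509, 767 and 946 CPM in PC3, DU145 and LNCAP, the order PC3, DU145, LNCAP that POLQ also showed. POLQ, the polymerase of microhomology-mediated joining, stood at 36.05, 45.8 and 65.9 CPM. LIG4, the ligase that seals the ends, stood at 16.6, 36.5 and 33.3 CPM in PC3, DU145 and LNCAP. It was 2.20-fold lower in PC3 than in DU145 (1.89 to 2.56) and lay on the threshold against LNCAP at 2.002-fold lower (1.72 to 2.34), where it missed the call once 0.5 counts were added. XRCC6 stood at 377, 621 and 432 CPM in PC3, DU145 and LNCAP, XRCC5 at 317, 390.3 and 409.9 CPM, and XRCC4, which stabilises LIG4, at 8.90, 9.64 and 6.40 CPM. In PC3 against DU145 all 6 genes had negative log2 ratios, with a median of -0.47, though LIG4 alone was called.

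Single-strand break repair, which the drug class of PARP inhibitors acts on, split by gene. PARP1 was nearly level at 456, 408 and 493 CPM in PC3, DU145 and LNCAP. PARP2, its smaller relative, stood at 35.9, 69.7 and 44.8 CPM and was called in no pair. XRCC1, the scaffold that PARP1 recruits, stood at 28.1, 26.7 and 13.2 CPM in PC3, DU145 and LNCAP, 2.13-fold higher in PC3 than in LNCAP (1.80 to 2.53) and 2.03-fold higher in DU145 (1.71 to 2.41). LIG3, the ligase that XRCC1 carries, went the other way at 46.9, 40.8 and 83.0 CPM. It was 2.03-fold lower in DU145 than in LNCAP (1.85 to 2.24) and 1.77-fold lower in PC3 (1.61 to 1.94), under the threshold there. Exons of XRCC1 overlap other genes over 24% of their length and those of LIG3 over 30.5%, chiefly RFFL. LIG1, the replication ligase, stood at 38.3, 37.7 and 21.6 CPM in PC3, DU145 and LNCAP and was called in no pair.

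Partner genes were also compared within each library, where the scaling between libraries plays no part, as the ratio of their FPKM values. The gene lengths in FPKM are the union of all annotated exons, not the lengths of the transcripts made. Whether a ratio lies above or below parity depends on these lengths, which the intervals do not cover. The change of a ratio between lines does not depend on the listed lengths. BARD1 was below BRCA1 in PC3 and DU145 and above it in LNCAP, with BARD1 to BRCA1 ratios of 0.357 in PC3 (0.306 to 0.416), 0.513 in DU145 (0.462 to 0.569) and 2.90 in LNCAP (2.68 to 3.14). XRCC1 over LIG3 turned the other way, at 2.24 in PC3 (1.98 to 2.53), 2.45 in DU145 (2.16 to 2.77) and 0.593 in LNCAP (0.510 to 0.688). CHEK1 over ATR was 2.84 in PC3 (2.58 to 3.12), 1.67 in DU145 (1.54 to 1.80) and 0.823 in LNCAP (0.747 to 0.906). At the listed lengths, PC3 and DU145 lay on one side of parity in these 3 pairs and LNCAP on the other. CHEK2 over ATM instead set PC3 apart, at 0.667 (0.591 to 0.749), against 1.29 in DU145 (1.18 to 1.42) and 1.48 in LNCAP (1.30 to 1.68). LIG4 over XRCC4 was also lowest in PC3, at 1.14 (0.921 to 1.41), against 2.31 in DU145 (1.93 to 2.78) and 3.17 in LNCAP (2.56 to 3.97). PALB2 over BRCA2 was highest in PC3, at 1.88 (1.63 to 2.17), against 0.918 in DU145 (0.809 to 1.04) and 1.06 in LNCAP (0.902 to 1.25). PARP1 exceeded PARP2 everywhere, at 7.27 in PC3 (6.66 to 7.94), 3.35 in DU145 (3.14 to 3.57) and 6.29 in LNCAP (5.82 to 6.81), and NBN exceeded MRE11 at 2.84, 2.59 and 1.87 in PC3, DU145 and LNCAP. The pairs FANCD2 over FANCI, at 0.577, 0.488 and 0.613, and XRCC5 over XRCC6, at 0.506, 0.378 and 0.572 in PC3, DU145 and LNCAP, varied least between the lines of the 10 pairs compared.

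**Figure D4:**
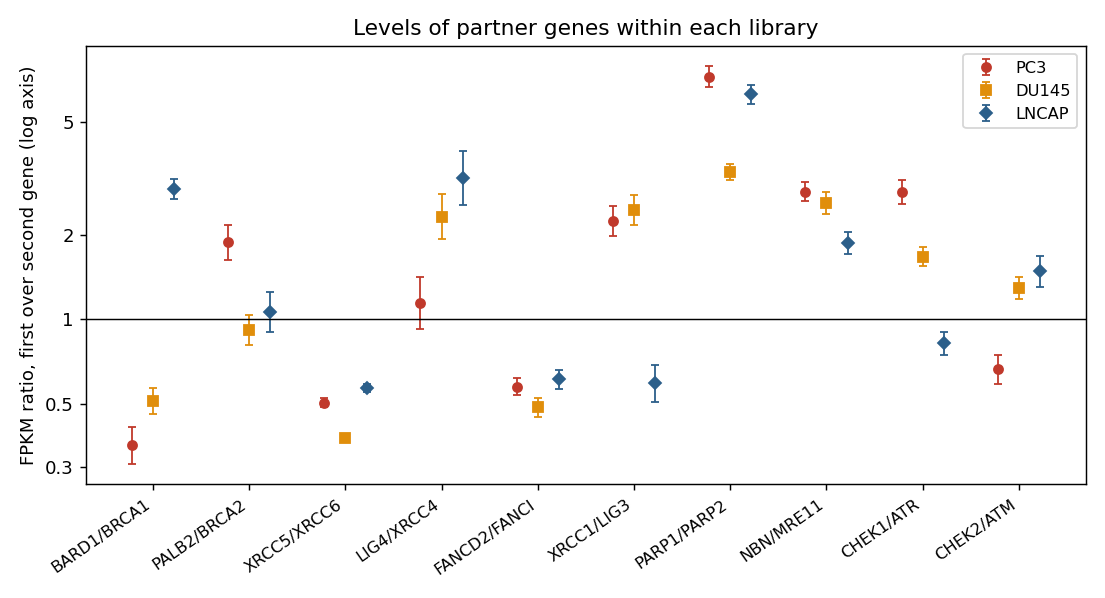
Ratio of FPKM values (log axis) of 10 gene pairs within each library for PC3, DU145 and LNCAP, with 95% counting intervals and a line at 1. BARD1 over BRCA1 lies at 0.357 in PC3 and 0.513 in DU145, against 2.90 in LNCAP.

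The class comparison asked which genes separated PC3 and DU145 together from LNCAP. In edgeR's quasi-likelihood test with Benjamini-Hochberg adjustment none of the 42 genes passed an adjusted p of 0.05, and none of the 18025 genes did (0% called). At an unadjusted p under 0.05 there were 2 of the 42 genes and 1746 of all genes, or 9.69%. The 2 were BARD1, with a log2 change of -2.37 (adjusted p = 0.479), and RBBP8, with 1.93 (adjusted p = 0.486), each in the same direction in both lines. Across the other class fits the adjusted p ranged from 0.0931 to 0.765 for BARD1 and from 0.084 to 0.765 for RBBP8. DESeq2 called 1306 genes (7.25%) and limma-voom none, and neither called any of the 42. The fit had 1 residual degree of freedom and took its spread from the difference between PC3 and DU145, 2 different lines.

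Further genes of the same pathways, 55 that are not among the 42, were read alongside, and 52 passed the filter. In PC3 against LNCAP 9 were at least 2-fold higher and 3 lower, against 22.6% and 23.6% of all genes tested. In DU145 against LNCAP 8 were higher and 4 lower, against 22.9% and 23.1% of all genes. APLF, an end-joining scaffold, was 7.72-fold higher in PC3 than in LNCAP (4.10 to 16.1) and 6.08-fold higher in DU145 (3.19 to 12.8), from 11 LNCAP counts. Of its exon length 22.8% is shared with PROKR1 on the same strand, which had 90, 0 and 0 counts in PC3, DU145 and LNCAP. APLF itself had 83 counts in PC3, and how the overlap bears on its PC3 ratio was not tested. APTX, which removes AMP from stalled ligation ends, was 2.27-fold lower in PC3 (2.02 to 2.555) and 2.29-fold lower in DU145 than in LNCAP (2.04 to 2.57). UBE2T, the ubiquitin-conjugating enzyme that works with FANCL, stood at 17.6, 45.4 and 38.6 CPM in PC3, DU145 and LNCAP, 2.58-fold lower in PC3 than in DU145 (2.24 to 2.98). RMI2, a subunit of the BLM complex, was 3.42-fold higher in DU145 than in LNCAP (2.84 to 4.15), and SFR1, a cofactor of homologous recombination, 3.48-fold (2.75 to 4.43). In PC3 against DU145, 7 were higher and 4 lower, against 18.5% and 19.3% of all genes. PARP3 was 2.93-fold higher in PC3 than in DU145 (2.535 to 3.41) and SFR1 5.85-fold lower (4.38 to 7.96).

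Because many recombination genes are transcribed as cells replicate, 16 S-phase genes were read beside them. They had a median log2 ratio of -0.15 in PC3 over LNCAP. There 1 was called higher (TYMS) and 1 lower (MCM4), against 22.6% and 23.6% of all genes tested. Of the exon length of TYMS 46.6% overlaps genes on the other strand, chiefly ENOSF1. In DU145 over LNCAP the median of the S-phase genes was 0.60, with 5 called higher and none lower, against 22.9% and 23.1% of all genes. Among those higher were MCM3 at 3.43-fold (3.24 to 3.63) and MCM5 at 3.003-fold (2.803 to 3.22). In PC3 over DU145 the median was -0.62, with none called higher and 4 lower, against 18.5% and 19.3% of all genes. MCM4 was 4.99-fold lower (4.70 to 5.30). The part of these levels in the repair gene differences was not tested.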

How the data were processed

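RNA was sequenced from PC3, DU145 and LNCAP cells, 1 library each. The authors deposited raw read counts per gene, and FPKM values that equalled these counts divided by listed gene length and 1 constant per library. Per the submitters' processing notes, TopHat2 2.0.9, Bowtie2 2.0.6, Cuffdiff 2.1.1 and Cufflinks 2.1.1 were used, without stated roles. What counted the reads, with which strand setting and build, is not given in the sources used here. The 58735 gene IDs, coordinates and lengths matched GENCODE 29 (GRCh38).

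The 18025 genes that reached 1 CPM in any library were kept, and counts were scaled by TMM factors of 0.998, 0.987 and 1.02 for PC3, DU145 and LNCAP (edgeR 4.0.16, R 4.3.3). Ratios carry exact 95% counting intervals (conditional binomial, Clopper-Pearson; scipy 1.17.1), with 0.5 counts added for log2 ratios. Without molecular identifiers, reads may be copies of one molecule, so intervals cover counting error only. PC3 and DU145 were tested against LNCAP with edgeR's quasi-likelihood test, and with DESeq2 1.42.0 and limma 3.58.1 as alternatives. Exon overlaps were computed from GENCODE 29. Calls and fits were run on simulated counts whose set changes were larger than 2-fold and whose spread was not taken from these lines. Those runs do not test the 2-fold calls.

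The 42 genes, the lists and the motifs were chosen with earlier results of these data known. Any of the 42 genes could be named. From the other lists up to 3 genes per comparison and direction could be, by the near bound of the interval, and NHEJ1 was named for its low counts after these were seen. A few genes of the lists and markers are not reported here.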

Additional observations from a re-analysis of the deposited data

How the results depend on the processing

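No paired analysis was possible because each line has 1 library. No gene that was called changed sign in any of the 11 alternatives per pair of lines. Scaling by upper quartile gave 6 higher and 5 lower genes in PC3 against LNCAP and 1 higher and 6 lower in PC3 against DU145. A fold of 1.5 called 22 genes in PC3 against LNCAP (14 higher, 8 lower), 23 in DU145 against LNCAP (19 higher) and 23 in PC3 against DU145 (7 higher, 16 lower), against 61.2%, 61.2% and 53.9% of all genes. A fold of 4 called 1 (0 higher, 1 lower), 3 (2 higher, 1 lower) and 0 (0 higher, 0 lower) in the same order. All genes had 26.3%, 25.8% and 19.1% called at that fold. On FPKM with 1 added, which shrinks the change of low genes, 6 (4 higher), 5 (3 higher) and 2 (0 higher, 2 lower) were called. The shares of all genes called in this setting were 28.1%, 27.2% and 20.9%. With 0.1 added 1 gene was higher in PC3 against DU145, where 36.5% of all genes were called. Without the 6 genes that overlap others over 20% or more of their exons, an alternative chosen after seeing the data, PC3 against DU145 kept 5 calls, 1 of them higher. DESeq2 called 1306 genes in the class comparison, where edgeR called 0. The median log2 ratio of the 42 genes in the class comparison was 0.35, against 0.098 over all genes tested. The median of the 42 genes was 0.31 to 0.41 with 1 line of the class left out, as values with no test. RAD51B, XRCC2, CHEK1, XRCC1, LIG3 and RAD54L lie at the 2-fold threshold and lost their call under at least 1 scaling or filter, while LIG4 and ATR gained one in PC3 against LNCAP. With no replicate, depth sets the counting error alone, and the spread between cultures of a line is unknown.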
